A study of Mus musculus with 8 samples.

Results

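Nrg4, the other EGF family ligands and the ErbB receptors were followed in mouse liver after knockdown of Raly. The members were the array probes that are not controls and whose gene name in the scanner files is Nrg4, Egf, Tgfa, Hbegf, Areg, Btc, Egfr, Erbb2, Erbb3 or Erbb4. This gave 10 of the 24029 genes named on the array, read by 15 of its 55681 probes. The set was chosen by the shRaly values of Nrg4, which were higher than the control values on several probes in these same arrays, so the Nrg4 contrast is described without a test. The other 9 genes were added as its family.

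Total liver RNA came from bl6 mice aged 12 weeks and fed chow, taken on day 6 after adenovirus. The control group (4 arrays) received the pblockITcontrol virus and the shRaly group (4 arrays) the pblockITshRaly virus, which carries a short hairpin against Raly. Both groups were thus virus-treated, at a dose the labels give as 2e+09 with no unit, and no untreated liver was analysed here. Raly, an RNA-binding protein of the hnRNP family, had 62.5% of the control signal on average (log2 difference -0.68, SE 0.15, limma adjusted p = 0.0749). The signal was 51.8%, 80.9%, 58.3% and 62.7% of the control mean in shRaly 1 to 4. Controls 1 to 4 had 100%, 84.3%, 105% and 112% of it, so that shRaly 2 lay close below control 2. The Raly difference passed the threshold of 0.05 with normexp background correction (adjusted p = 0.0111), with trend and robust variance (0.0383) and without shRaly 2 (0.0299), and its adjusted p reached 0.194 in the other settings (without shRaly 4).

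The EGF family ligands are made as membrane-anchored precursors that proteases release from the cell surface. They bind receptors of the ErbB family, which pair up on binding and signal through the RAS-ERK and PI3K-AKT cascades. Egfr binds EGF, TGF-alpha, amphiregulin, betacellulin and HB-EGF. Erbb2 has no known ligand of its own and serves as a partner, Erbb3 has a weak kinase, and Erbb4 is the receptor that neuregulin 4, the product of Nrg4, binds. Nrg4 is known as a secreted factor of brown fat that acts on the liver and lowers lipid synthesis there.

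Nrg4 was measured by 3 probes of 60 bases, all on the minus strand of chromosome 9, with coordinates of the files on mouse build mm9. They are named here by clone, by splicing or by place along the gene, since they did not read alike. The cDNA probe matches a RIKEN clone (AK080089) at chr9:55088520-55088579. On the minus strand that lies upstream of the junction and 3′ probes. The junction probe, annotated to NM_032002, spans 8559 bases from 55075745 to 55084303, so its 60 bases join separate parts of the gene and read spliced RNA. The 3′ probe, also of NM_032002, lies at chr9:55068030-55068089 and holds the hexamer AATAAA, the usual poly(A) signal, at bases 30 to 35. That hexamer occurs on the probe strand in 10.1% of the 55681 probes of the array and in 1 of the 15 member probes, and on the other strand in 3.74% and in 0 of 15. Exon, intron and UTR annotation on this build was not analysed here. The junction probe is shown whole, the cDNA probe by its first 30 bases and the 3′ probe by bases 18 to 47 with the hexamer in capitals, since these sequences define what each Nrg4 value reads.
Nrg4 junction probe: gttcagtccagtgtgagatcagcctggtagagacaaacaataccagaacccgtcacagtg
Nrg4 cDNA probe, first 30 bases: ttgctcgttcgaacctttagttggcttgga
Nrg4 3′ probe, bases 18 to 47: aaacctccttttAATAAActccgactctac

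Nrg4 signal was higher in shRaly livers on all 3 probes, by 3.07-fold on the cDNA probe, 2.85-fold on the 3′ probe and 1.79-fold on the junction probe. These are the values for which the gene was picked. Values are log2 signal relative to the 75th percentile of the same array, so that 0 is a spot brighter than 75% of the others. On the cDNA probe the control arrays had 0.83, 0.80, 0.49 and 0.98 (replicates 1 to 4) and the shRaly arrays 2.98, 2.15, 2.34 and 2.09. The groups stood well apart there, and shRaly 1 was the brightest.

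On the 3′ probe the control arrays had 1.98, 0.87, 0.81 and 1.83 and the shRaly arrays 2.84, 2.77, 2.94 and 2.99. The shRaly values lay close together and above every control, while the controls fell into a brighter pair (1 and 4) and a dimmer pair (2 and 3). The junction probe had 0.93, -0.58, -0.56 and 0.80 in the controls and 0.72, 1.04, 1.01 and 1.17 in the shRaly arrays. Here the groups overlapped, because shRaly 1 lay below controls 1 and 4.

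**Figure D1:**
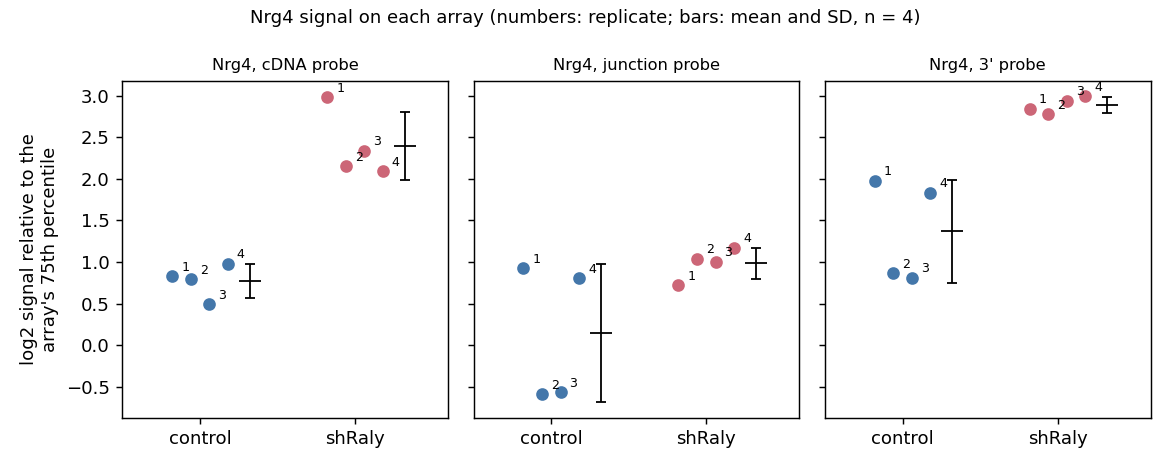
Nrg4 signal (y axis, log2 relative to the 75th percentile of the array) on the 3 probes, with 1 point per array numbered by replicate and the mean and SD of the 4 arrays of each group beside them. On the cDNA and 3′ probes all shRaly points lie above all control points, and on the junction probe controls 1 and 4 (0.93 and 0.80) reach the shRaly range.

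The log2 difference of shRaly minus control was 1.62 (SE 0.20) for the cDNA probe, 1.51 (SE 0.27) for the 3′ probe and 0.84 (SE 0.36) for the junction probe, with n = 4 and 4. Ranked by the size of the rise among the 26936 probes that passed the detection filter, these were places 25, 32 and 220. Nrg4 was picked for this rise, so high places follow from that choice. The spread in the controls differed between probes, with an SD of 0.20 for the cDNA probe, 0.62 for the 3′ probe and 0.83 for the junction probe. In the shRaly group the 3 SDs were 0.41, 0.096 and 0.19.

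The 3′ and junction probes, both of NM_032002, shared their pattern among the control arrays, where both were brighter on controls 1 and 4 than on controls 2 and 3. With the group means taken out, Pearson's r over the 8 arrays was 0.98 between these probes, and 0.28 and 0.11 between the cDNA probe and each of them. The 0.98 rests mostly on the controls, whose SDs were 0.62 and 0.83 on these probes, against 0.096 and 0.19 in the shRaly group. Within the shRaly group the lowest array was shRaly 2 on the 3′ probe and shRaly 1 on the junction probe. These correlations are descriptions over arrays that share 1 slide. The 3′ signal also stood further above the junction signal in shRaly livers. On the log2 scale that gap was 1.03 to 1.45 in the controls and 1.73 to 2.12 in the shRaly arrays, without overlap. The gap is again part of the contrast that chose the gene and was not tested.

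Averaged over the 3 probes, Nrg4 stood at 139%, 75.5%, 69.9% and 136% of the control mean on controls 1 to 4. The shRaly arrays had 267%, 234%, 251% and 249%. The shRaly array with the smallest loss of Raly, shRaly 2 at 80.9%, had the lowest Nrg4 mean of its group. By probe, shRaly 2 was lowest on the 3′ probe only, shRaly 4 on the cDNA probe and shRaly 1 on the junction probe. The 4 shRaly means differed from each other by little (SD 0.079 on the log2 scale, against 0.53 in the controls). In bulk liver RNA, more cells that make a transcript and more RNA per cell cannot be told apart, for this gene and for those that follow.

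Since Nrg4 is best known from fat, adipocyte markers were read beside it. Of 8 such genes on the array, the defining Adipoq (adiponectin), Plin1, Lep and Ucp1 did not pass the detection filter. The 4 others had a median log2 difference of 0.068, and their medians ran from -0.76 to 1.107 on the control arrays and from -0.86 to 0.84 on the shRaly arrays. Hepatocyte markers, all 10 of which passed the filter, had a median of -0.0035 over differences of -0.47 to 0.44, 5 of them higher and 5 lower. At an unadjusted p under 0.05 there were 4 of the 10, where 16.1% of all genes were, and 0 passed the threshold. The list had array medians of -0.069 to 0.077 in the controls and -0.10 to 0.099 in the shRaly group.

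The other 9 genes had 12 probes, of which 10 probes of 8 genes passed the filter. The filter kept a probe when the scanner software called it well above background on 4 or more arrays. With flagged spots counted, each of these 10 probes met that call on all 4 control arrays and on 3 or 4 shRaly arrays. Of these 10 probes, 1 was lower in shRaly livers past the threshold (limma adjusted p under 0.05) and 0 were higher. For comparison, 0.698% of all probes passed the threshold, 0.549% as lower and 0.149% as higher. Without adjustment 3 of the 10 had p under 0.05, where 14.4% of all probes did. The groups did not overlap for 2 of them, both lower in shRaly livers, where the share over all probes was 9.52% (6.03% lower and 3.49% higher). The median log2 difference over the 10 was 0.0058, and over all probes -0.027, with 5 probes higher and 5 lower on average.

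**Figure D2:**
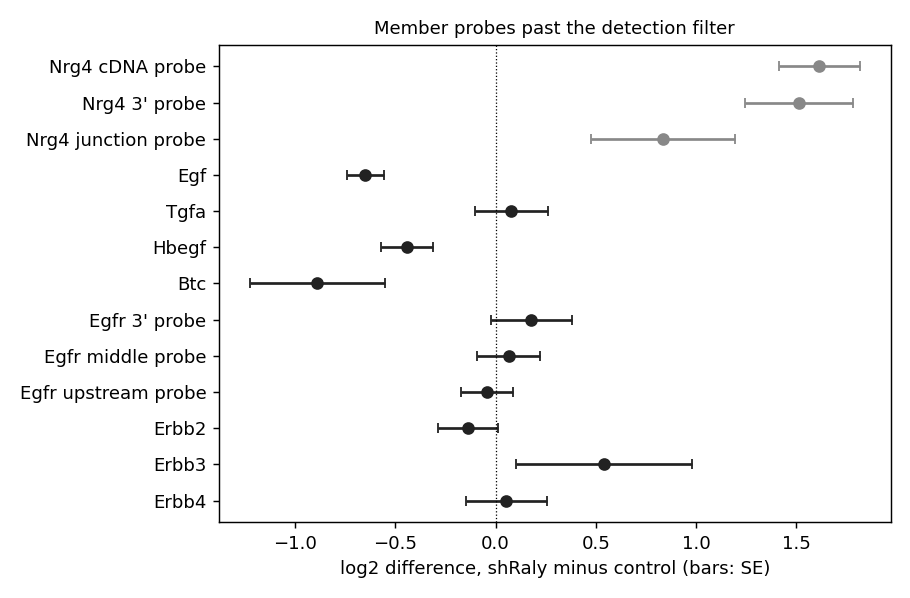
Log2 difference between shRaly and control livers (x axis) for the 13 member probes past the detection filter, with the SE of the limma fit as bars. The Nrg4 probes (grey) chose the set and carry no test. Egf (-0.65) was past the threshold, and the receptors lie between -0.14 and 0.54.

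Among the ligands, Egf, the family's namesake, was lower in shRaly livers. Its probe, printed on 10 spots per array, lies at chr3:129380826-129380885 and is shown because it is the member that passed the test.
Egf probe: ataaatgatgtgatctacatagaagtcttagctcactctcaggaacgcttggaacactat
Egf had -3.20, -2.95, -2.92 and -3.04 on the control arrays and -3.64, -3.71, -3.69 and -3.68 on the shRaly arrays. The groups did not overlap. Egf fell to 63.7% of the control level (log2 -0.65, SE 0.093, limma adjusted p = 0.0267).

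The Egf signal was faint, with a processed signal of 31.2 to 36.6 in the controls and 17.8 to 22.6 in the shRaly group. The SD between its spots on 1 array ran from 0.067 to 0.32 on the log2 scale. On shRaly 2 only 4 of 9 unflagged spots were well above background, and the probe met the detection call there only with flagged spots counted. Its value on shRaly 2 (-3.71) was no higher than the lowest signal called well above background on that array (-3.71). With the normexp background correction, which adds an offset of 50 to each signal, the difference was -0.068 (limma adjusted p = 0.866). That offset is larger than the processed Egf signal and by itself draws differences toward 0. The part of the background method in this loss therefore cannot be told. The offset also shrinks the normexp differences given below for Hbegf and Btc. The call also ended without any 1 of controls 1, 2, 3 and 4 or shRaly 3 and 4 (adjusted p 0.0378 to 0.101 over the 8 leave-outs, log2 -0.71 to -0.62).

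Hbegf, which encodes heparin-binding EGF, an injury-responsive ligand of Egfr and Erbb4, was also lower on every shRaly array but did not pass the adjusted threshold. The control arrays had -1.91, -1.99, -1.98 and -2.05 and the shRaly arrays -2.33, -2.12, -2.63 and -2.63. The lowest control and the highest shRaly array were close. The log2 difference was -0.44 (SE 0.13, 95% interval -0.74 to -0.14, limma adjusted p = 0.177), and -0.17 with normexp.

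Btc, the gene of betacellulin, had -3.52, -3.46, -2.39 and -2.44 in the controls and -4.24, -3.93, -3.12 and -4.08 in the shRaly arrays. Controls 1 and 2 lay below shRaly 3, so the groups overlapped. The log2 difference was -0.89 (SE 0.34, 95% interval -1.66 to -0.12, limma adjusted p = 0.279), and -0.14 with normexp. The signal was faint, and 3 of the 4 shRaly arrays were well above background.

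Tgfa, which encodes TGF-alpha, a ligand made by hepatocytes in regeneration, varied more within shRaly livers than between the groups. The control arrays had -2.41, -2.31, -2.30 and -2.15 and the shRaly arrays -2.74, -2.24, -1.84 and -2.03, so that shRaly 1 was the lowest of all and shRaly 3 the highest. The log2 difference was 0.078 (SE 0.18, 95% interval -0.34 to 0.49, limma adjusted p = 0.894). Without shRaly 3 it was -0.046.

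Areg, the gene of amphiregulin, failed the detection call on every array. Of the 5 family ligands outside the set, Nrg2, Nrg3, Ereg and Epgn did not pass the filter either. Nrg1 passed it, with a log2 difference of 0.063 (limma adjusted p = 0.936), so that 0 of the 5 ligands tested besides Nrg4 were higher past the threshold.

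Among the receptors, Egfr was bright, and its groups overlapped on all 3 probes. The 3′ probe, annotated to NM_207655 and lying at chr11:16813815-16813874, had 5.94, 6.56, 5.82 and 5.60 in the controls and 5.97, 6.38, 6.08 and 6.19 in the shRaly arrays. The other probes, annotated to NM_007912, lie upstream of it, at chr11:16783556-16783615 and at chr11:16787172-16787231. The middle probe had 4.74, 5.29, 5.17 and 4.96 in the controls and 4.78, 5.14, 5.29 and 5.22 in the shRaly arrays. The upstream probe had 4.33, 4.80, 4.69 and 4.46 in the controls and 4.34, 4.59, 4.63 and 4.56 in the shRaly arrays. On both, replicate 1 was the dimmest array of each group. The log2 differences were 0.18 (SE 0.20) for the 3′ probe, 0.066 (SE 0.16) for the middle one and -0.043 (SE 0.13) for the upstream one, with limma adjusted p from 0.742 to 0.920. The 95% intervals ran from -0.28 to 0.64, from -0.29 to 0.42 and from -0.34 to 0.25.

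Whether the Egfr probes differed from each other between groups was asked of the 3 within-array gaps. The gap between the 3′ and upstream probes differed by 0.22, between the 3′ and middle probes by 0.11 and between the middle and upstream probes by 0.11 (exact permutation tests, two-sided p = 0.257, 0.600 and 0.114, adjusted over the 3 gaps 0.386, 0.600 and 0.343). The smallest p that 4 against 4 arrays allow is 0.0286.

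Erbb2, the partner receptor, was faint. Its control arrays had -3.50, -3.50, -3.23 and -3.28 and its shRaly arrays -3.14, -3.50, -3.62 and -3.79. The shRaly arrays held both the highest and the lowest value, and the log2 difference was -0.14 (SE 0.15, 95% interval -0.47 to 0.20, limma adjusted p = 0.725). With normexp the sign turned, to 0.060.

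Erbb3, the receptor with the weak kinase, had -1.78, -2.08, -2.34 and -2.10 in the controls and -2.29, -0.045, -1.70 and -2.09 in the shRaly arrays. The shRaly 2 array stood alone, at 408% of the control mean, while the other 3 lay at 85.9% to 130%. The log2 difference of 0.54 (SE 0.44, limma adjusted p = 0.622) rested on that array and was 0.046 without it. Erbb3 was read by 1 spot per array.

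Erbb4, the receptor for Nrg4, gave a signal on 1 of its 2 probes. One probe, annotated to the RefSeq transcript NM_010154, failed the detection call on every array, with a processed signal of 2.26 to 3.90. The other, annotated to an Ensembl transcript and lying at chr1:68078805-68078864, met it on all 8, with a processed signal of 155 to 358. The 2 probes thus disagreed on whether Erbb4 RNA was detected, and the reason was not tested. The probe with signal is shown by its first 30 bases, because the Erbb4 values below come from it alone.
Erbb4 probe with signal, first 30 bases: cccagctgaacaatttgaaaactgttctgc
The detected probe had -0.043, -0.24, -0.48 and 0.13 in the controls and 0.048, -0.59, 0.29 and -0.17 in the shRaly arrays. The groups were mixed, with shRaly arrays at both ends. The log2 difference was 0.054 (SE 0.20, 95% interval -0.41 to 0.52, limma adjusted p = 0.937).

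**Figure D3:**
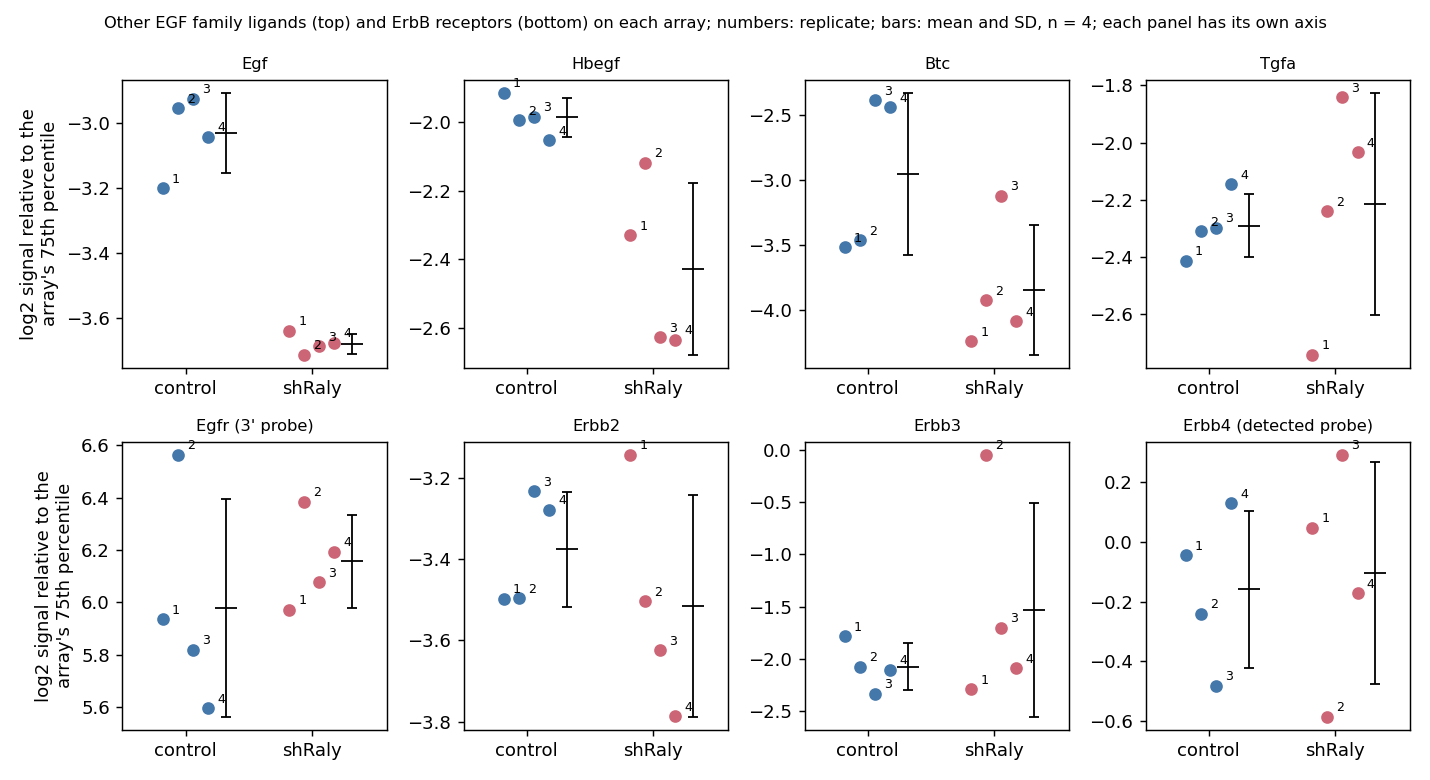
Log2 signal relative to the 75th percentile of the array (y axis, own range in each panel) for the other ligands (top) and the receptors (bottom), with 1 numbered point per array and the mean and SD of 4 arrays per group. Egf and Hbegf show no overlap of the groups, Btc overlaps through shRaly 3 (-3.12), and Erbb3 has a single high array, shRaly 2 (-0.045).

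The wider pathway was read on 96 further genes in 6 lists, of which 86 were tested with 1 probe each, the brightest past the filter. Of these 86, 1 was higher in shRaly livers past the threshold and 0 were lower. Over all genes tested 1.22% passed, 0.309% as higher and 0.914% as lower. At an unadjusted p under 0.05 there were 13 of the 86, and 16.1% of all genes. The median log2 difference over all genes was -0.018.

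The gene past the threshold was Eps15, an endocytic adaptor that takes part in the internalisation of Egfr. It had -1.14, -0.99, -1.05 and -0.71 in the controls and -0.27, -0.37, -0.27 and -0.36 in the shRaly arrays. All shRaly values lay above all controls. Eps15 rose 1.57-fold (log2 0.65, SE 0.11, limma adjusted p = 0.0325). The call was lost with median scaling (0.0836) and without any 1 array except control 4 and shRaly 2, with adjusted p from 0.0259 to 0.101. In its list of brakes on ErbB signalling and receptor turnover, 21 of 23 genes were tested, 1 was higher and 0 were lower past the threshold, and the median was -0.0066. Errfi1, the feedback inhibitor of Egfr, stood at 0.26 and Cblb, a ubiquitin ligase for activated receptors, at -0.36 (limma adjusted p = 0.518 and 0.110). Those and the genes of the cascade and shedding lists named without a call are given as values only. Errfi1, Cblb, Adam10, Adam17, Junb, Dusp6, Myc, Dusp1, Dusp4, Ier2 and Fos were chosen after their values were seen.

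The ligand shedding proteases and their regulators had 0 of 12 past the threshold, 2 at an unadjusted p under 0.05, and a median of 0.099. Adam17 and Adam10, the main sheddases of the family, stood at -0.061 (SE 0.17) and 0.11 (SE 0.13). Adam8 had 0.50 (SE 0.16, limma adjusted p = 0.183) and Rhbdf2, which guides Adam17 to the cell surface, 0.38 (SE 0.14, adjusted p = 0.240).

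The adaptors and the RAS-ERK-AKT cascade had 0 of 28 tested genes past the threshold, 3 at an unadjusted p under 0.05, and a median of -0.028. Pik3r1, the regulatory subunit of PI3-kinase, had 0.71 (SE 0.20, limma adjusted p = 0.125) and passed the threshold without shRaly 2 (0.88, adjusted p = 0.0459). Araf, a RAF kinase, had -0.29 (SE 0.081, adjusted p = 0.130) on its brightest probe. Other Araf probes had 0.22 and 0.30, so its direction depends on the probe.

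Genes that respond to ERK signalling had lower averages in shRaly livers, none of them past the threshold. Of 14 tested, 13 had a lower mean and 1, Ier3, a higher one. Among the 13, Myc (-0.0067, SE 0.40), Dusp1 (-0.011, SE 0.39), Dusp4 (-0.054, SE 0.28) and Ier2 (-0.066, SE 0.23) lay near 0. Fos had -0.18 (SE 0.34). The median was -0.23, where that over all genes tested was -0.018. Of the 14, 4 had an unadjusted p under 0.05, where 16.1% of all genes did. The share of all genes with a lower mean was not counted, so the 13 of 14 has no baseline and was not tested. The list's median, relative to the control mean of each gene, ran from -0.18 to 0.29 on the control arrays and from -0.58 to -0.21 on the shRaly arrays. Stellate cell and endothelial markers had similar medians, -0.28 with 6 of 7 genes lower and -0.26 with 5 of 7 lower, of which 2 and 3 had an unadjusted p under 0.05. Stellate medians were -0.25 to 0.29 on the control arrays and -0.34 to -0.073 on the shRaly arrays, and endothelial medians -0.16 to 0.065 and -0.22 to -0.14. Their part in the values of the ERK-responsive genes was not tested. Egr1, an early growth response factor, had 2.26, 1.61, 1.89 and 1.09 in the controls and 0.16, 0.63, 0.62 and 0.93 in the shRaly arrays. Its groups did not overlap, though control 4 and shRaly 4 were near each other. Egr1 stood at 45.8% of control (log2 -1.13, SE 0.25, limma adjusted p = 0.0752).

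Phlda1 had 4.47, 4.05, 5.07 and 5.33 in the controls and 3.75, 3.55, 3.49 and 3.73 in the shRaly arrays, also without overlap (log2 -1.10, SE 0.25, limma adjusted p = 0.0829). With normexp both Egr1 and Phlda1 passed the threshold (adjusted p = 0.0421 and 0.0208). Dusp6, a phosphatase that ERK induces and that switches ERK off, had -0.43 (SE 0.15, adjusted p = 0.201) and Junb -1.19 (SE 0.41, adjusted p = 0.203). The Junb signal was faint, at -5.12 on shRaly 1 and -4.43 on shRaly 2. Both lay below the lowest signal called well above background on the same array (-4.42 and -3.71). Over all genes tested, 10.4% had groups that did not overlap, against 3 of the 14 here.

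**Figure D4:**
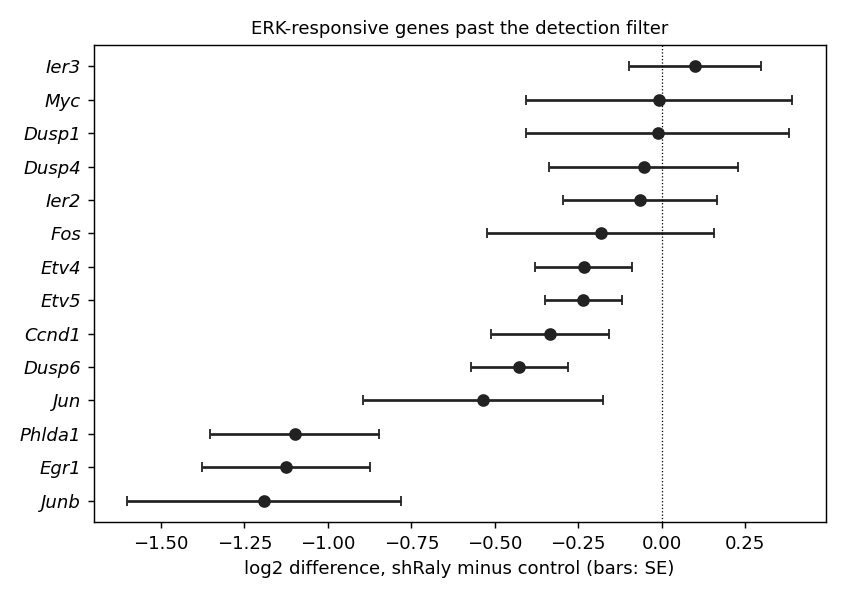
Log2 difference between shRaly and control livers (x axis) for the 14 ERK-responsive genes past the detection filter, with the SE of the limma fit as bars. Of the 14 points 13 lie below 0, none past the threshold, and Ier3 (0.10) lies above 0. The median over all genes tested was -0.018, and the count of 13 was not tested.

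Liver lipid synthesis genes, read because neuregulin 4 is known to lower them, had 0 of 10 past the threshold, 2 at an unadjusted p under 0.05, and a median of 0.011. Fasn, fatty acid synthase, had 2.17, 1.79, 1.18 and 0.95 in the controls and 0.83, 1.22, 0.85 and 0.021 in the shRaly arrays. The groups overlapped, with a log2 difference of -0.79 (SE 0.32, limma adjusted p = 0.266). Scd1, the stearoyl-CoA desaturase, had -0.67 (SE 0.26, adjusted p = 0.259).

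By pattern over the 8 arrays, the genes most like the mean of the 3 Nrg4 probes among 13288 compared were Cebpe (Pearson's r 0.97), Capns1 (0.97), Pdxk (0.96), Chd1 (0.96) and Mtr (0.96). Part of this likeness is the difference between the groups, and with the group means taken out r was 0.87, 0.93, 0.84, 0.81 and 0.89. Genes were picked by r over all 8 arrays, which includes the part within groups. High values with the group means taken out can thus follow from that choice, and they were not tested. Cebpe, a transcription factor of the C/EBP family, had 3.24, 2.99, 2.94 and 3.35 in the controls and 4.09, 3.92, 4.16 and 3.93 in the shRaly arrays. Like Nrg4, it was dimmer on controls 2 and 3 than on controls 1 and 4. Its log2 difference was 0.90 (SE 0.12). Capns1, the small calpain subunit, differed by 0.12 and Mtr, methionine synthase, by 0.14. Within the shRaly group their order was not that of Nrg4, which was highest on shRaly 1, while Capns1 was highest on shRaly 3 and Mtr on shRaly 4.

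All 8 arrays lay on 1 slide, with row 1 holding the controls and row 2 the shRaly livers, and the effects of row and virus cannot be told apart. The share of spots called above background ran from 45.9% (shRaly 2) to 51.1%, and the arrays correlated over genes at 0.987 to 0.995. Of the marker lists read besides those above, 0 genes passed the threshold. Their medians were -0.16 for cholangiocytes, -0.039 for Kupffer cells and macrophages, -0.26 for endothelium, -0.28 for stellate cells, 0.077 for T and NK cells, 0.27 for neutrophils and -0.15 for pancreas and gut. The part of these in the Egf and Nrg4 values was not tested.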

How the data were processed

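Mouse liver RNA, 8 samples with 4 per group, was labelled with Cy3 and read on 1-colour Agilent arrays. The titles number the samples without stating separate mice, and where they are not, each p-value reflects only technical spread. The deposited intensity values are the scanner software's processed signal (Agilent Feature Extraction 11.5.1.1 per the file headers, 11.5.1.11 per the submitters' processing notes), with background and spatial trend removed and no scaling between arrays. The deposited series table held the same values (62976 of 62976 spots, relative tolerance 1e-06). Column medians were 13.3 to 16.4, on a linear scale with no centring.

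Here log2 of the processed signal minus each array's 75th percentile was used. Flagged spots (137 to 163 per array) were left out of the values but counted in the detection call. Of all spots 0 were saturated, and spots of a probe were averaged. Probes well above background (in 50% or more of their spots) on at least 4 arrays, with values on at least 3 arrays per group, were tested: 26936 probes and, by the brightest probe, 14874 genes. limma 3.58.1 in R 4.3.3 was used, with Benjamini-Hochberg adjustment over all of them and a threshold of 0.05. The fit was tested on simulated data. Other genes were named through RefSeq accessions (table of GRCm38.p6, names only). The rule named Raly, all members, up to 4 genes past the threshold per pathway list (or the 2 of smallest p), and the 5 genes most like Nrg4. Members and lists were chosen with earlier results of these data known. The precision is limited by the number of arrays. Probe sequences come from the deposited files. Sequences for Hbegf and 1 Erbb4 probe are not reported here.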

Additional observations from a re-analysis of the deposited data

Results flagged for a closer look

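In a check for single arrays far from the rest of their group, 1 of 48 groups of 4 arrays stood out, where chance gives about 1 in 20. It was Nrg1, the founding neuregulin, in the shRaly group: shRaly 1 had -2.30 on the log2 scale and the other 3 arrays -3.31 to -3.18, so that the gap to the nearest array was 0.878 of the whole range, above Dixon's 95% critical value.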

How the results depend on the processing

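The Nrg4 difference, averaged over its probes, was 1.32. It ran from 1.15 to 1.48 when any 1 array was left out. In the other 9 settings it ran from 1.16 (normexp) to 1.51 (brightest probe alone). The filters, the variance model, the replicate block and the identical deposited table cannot change this difference, and each gave 1.32 again. As the contrast that chose the gene, it gains no weight from staying alike over settings. The number of other member probes past the threshold was 1, and 0 with normexp, with no filter on dim probes, with trend and robust variance and with a replicate block; leaving out 1 array gave 0 to 1. Pathway genes past it numbered 1, and 3 with normexp, 2 with trend and robust variance and 0 with median scaling, with no filter or with a replicate block (0 to 2 over the leave-outs). All probes past it numbered 188, and 336 with trend and robust variance, 26 with no filter and 50 with a replicate block (16 without shRaly 4 to 255 without shRaly 2). The cause of these shifts was not tested. Replicate number is also the column on the slide. Same-numbered arrays showed little shared deviation (r from -0.082 to 0.14), which cannot decide whether the numbers pair the samples. With the block the limma adjusted p was 0.122 for Egf and 0.112 for Eps15. Signs turned for Erbb2 (0.060 with normexp) and Araf (0.077 with the mean of its probes). Over the leave-outs they turned within -0.17 to 0.21 for Nrg1, -0.046 to 0.25 for Tgfa, -0.033 to 0.18 and -0.12 to 0.035 for the middle and upstream Egfr probes and -0.078 to 0.21 for Erbb4. Faint signals (Egf, Btc, Erbb2, Junb) limit what can be read of those genes, and the normexp offset of 50 draws the differences of faint probes toward 0.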

Other observations

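The protein-coding genes next to Nrg4, in RefSeq's order on GRCm38.p6, were read after the Nrg4 values were seen. Of the 3 on each side, 4 passed the detection filter. The nearest ones, Fbxo22 and Tmem266, had log2 differences of 0.0044 (SE 0.094) and 0.18 (SE 0.12), and Etfa, a subunit of the electron transfer flavoprotein, -0.14 (SE 0.11). Ube2q2, a ubiquitin-conjugating enzyme, had 0.75, 1.19, 1.12 and 1.23 in the controls and 1.24, 1.42, 1.31 and 1.36 in the shRaly arrays, without overlap (log2 0.26, SE 0.12, limma adjusted p = 0.327). None of the 4 was past the threshold. Nrg4 was picked for its rise and these genes were not, so their differences cannot be weighed against its own. Chrnb4 and Isl2 did not pass the filter.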
